A study of Homo sapiens with 3 samples.

Results

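A list of 10 human miRNA hairpins that sit in introns of protein-coding genes gave 19 mature miRNAs in these data, of 2580 endogenous mature miRNAs listed. The rule lists the hairpins by name, with both arms of each, and holds no threshold on a measured value: hsa-mir-191, hsa-mir-425, hsa-mir-26a-1, hsa-mir-26a-2, hsa-mir-26b, hsa-mir-186, hsa-mir-140, hsa-mir-151a, hsa-mir-28 and hsa-mir-335. All 10 were found in the count table, in 20 of its 2817 entries. The cells were Flp-In T-REx 293, derived from the human embryonic kidney line HEK293, and each of the 3 groups gave a single small RNA library, so that there are no replicates. The control carried the GFP vector without a hairpin, and the other cultures carried the same vector with a synthetic miR-1 or miR-122 hairpin in an intron of the GFP transcription unit. All 3 were lentivirally transduced populations, selected for 6 days in Geneticin at 1 mg/mL, after which its concentration was lowered. They were induced for 7 days with doxycycline at 1 ug/mL, the control included. The endogenous totals were 1636481 counts in control, 1791702 in miR-1 and 1947669 in miR-122. The induced miRNAs were highest in the libraries named for them. miR-1-3p had 166 counts in control, 1100840 in miR-1 and 369 in miR-122, and miR-122-5p had 10, 10 and 627576. Intervals below are 95% intervals that cover counting error alone, since there are no replicates. A difference between libraries therefore cannot be told apart from variation between cultures. The reads carried no molecular identifiers, so that PCR copies count as separate reads and the intervals may be too narrow even for counting error.

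An intronic miRNA is cut out of the host's primary transcript by the Drosha complex in the nucleus, exported, and cut again by Dicer into a short duplex. One strand of the duplex is usually kept by an Argonaute protein and the other is usually lost, so that the arms of a hairpin can differ widely in abundance. The retained strand finds its targets mainly through bases 2 to 8, the seed. Sharing a promoter with the host, such miRNAs are often made wherever the host is transcribed, but the later steps can set each level separately. The small RNA libraries do not measure the host mRNAs, and RNA of the hosts was not analysed here.

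The GENCODE annotation of GRCh37 held 9 of the 10 hairpins, each on the host's strand, inside the host named for it, and overlapping no exon of that gene's coding transcripts. MIR191 (chromosome 3, 49058051 to 49058142, minus strand) and MIR425 (chromosome 3, 49057581 to 49057667, minus strand) lie 383 bases apart in the first intron of DALRD3, whose product takes part in tRNA modification. Both hairpins lie within the span of 3 of 7 coding transcripts of DALRD3, and the canonical transcript spans neither. The intron is numbered on a single such transcript. MIR26A1 (chromosome 3, 38010895 to 38010971, plus strand) lies in intron 5 of CTDSPL, MIR26A2 (chromosome 12, 58218392 to 58218475, minus strand) in intron 5 of CTDSP2, and MIR26B (chromosome 2, 219267369 to 219267445, plus strand) in intron 4 of CTDSP1. These paralogous hosts encode small phosphatases that act on the C-terminal domain of RNA polymerase II. MIR186 (chromosome 1, 71533314 to 71533399, minus strand) lies in intron 8 of ZRANB2, a splicing regulator, and MIR140 (chromosome 16, 69966984 to 69967083, plus strand) in intron 16 of WWP2, a ubiquitin ligase. MIR28 (chromosome 3, 188406569 to 188406654, plus strand) lies in intron 7 of LPP, which encodes a LIM-domain protein of cell adhesions. That intron is 98422 bases long, against 629 for the intron that holds MIR26B. MIR335 (chromosome 7, 130135952 to 130136045, plus strand) lies in intron 2 of MEST, an imprinted gene expressed from the paternal copy. The remaining hairpin, mir-151a, is assigned to PTK2, the focal adhesion kinase gene.

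Mature sequences were available from RefSeq (GRCh38.p14) for 14 of the 19 miRNAs. Those that carry the results below are printed 5′ to 3′ with the seed in capitals, first the miR-26 family, whose arms share sequence, and then the arms whose levels or balance are described further on.
miR-26a-5p: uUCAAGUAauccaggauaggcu
miR-26b-5p: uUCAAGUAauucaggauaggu
miR-26a-1-3p: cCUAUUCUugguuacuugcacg
miR-26a-2-3p: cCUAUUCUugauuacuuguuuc
miR-191-5p: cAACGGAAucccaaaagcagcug
miR-425-3p: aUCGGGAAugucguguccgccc
miR-140-3p: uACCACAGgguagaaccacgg
miR-140-5p: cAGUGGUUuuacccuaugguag
miR-28-3p: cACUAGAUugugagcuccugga
miR-335-3p: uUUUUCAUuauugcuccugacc
miR-335-5p: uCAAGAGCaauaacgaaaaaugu

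Counted from 1 at the 5′ end, miR-26a-5p and miR-26b-5p differ at 2 of 21 shared positions, C11U and C21U, and have the same seed. The 3p arms of the mir-26a hairpins share their seed and differ at 5 of 22 positions: G11A, C19U, A20U, C21U and G22C. Of the listed miRNAs with a RefSeq sequence, 4 carry the seed UCAAGUA. The other two, miR-1297 and miR-4465, had 0 counts in all 3 libraries, where a count of 0 allows up to 3 counts. Such sequences covered 2275 of the 2580 listed miRNAs. Among those, all 35523 counts with this seed in control, 34044 in miR-1 and 38477 in miR-122 came from miR-26a-5p and miR-26b-5p. The seeds of miR-191-5p, miR-140-3p, miR-140-5p and miR-28-3p were found in no other listed miRNA with a RefSeq sequence.

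Together the 19 miRNAs took 4.54% of endogenous counts in control (95% Wilson interval 4.50% to 4.57%), 4.43% in miR-1 (4.40% to 4.46%) and 4.37% in miR-122 (4.34% to 4.40%). Their joint share was thus nearly level, while single members ran from 0 to 33780 counts, as the plot of levels shows. A group of 6 arms, miR-26a-5p, miR-191-5p, miR-151a-3p, miR-140-3p, miR-186-5p and miR-26b-5p, held 91.7%, 91.4% and 90.6% of the members' counts in control, miR-1 and miR-122. Counts of different miRNAs are compared here as sequenced reads, and no correction for ligation efficiency was made.

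**Figure D1:**
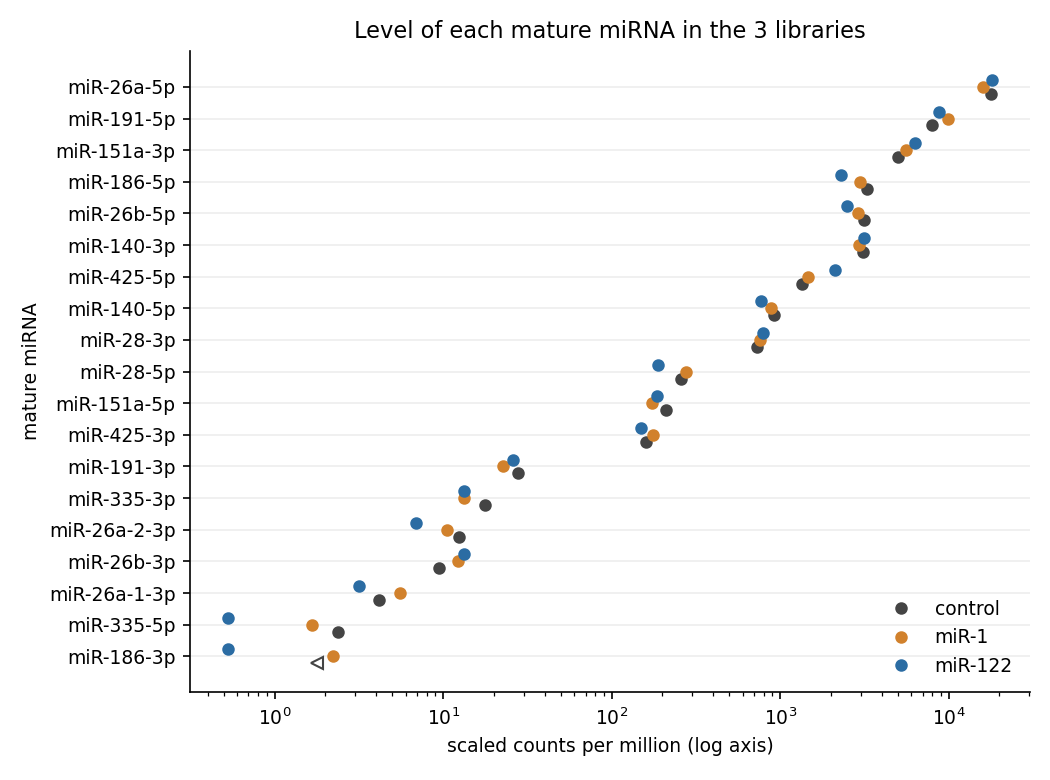
Level of each mature miRNA in CPM (log axis), with 1 point per library (dark grey control, orange miR-1, blue miR-122) and an open triangle at the limit of 3 counts where a library had none. The 3 points of a miRNA lie close together for the abundant arms, and miR-335-5p and miR-186-3p are at the bottom with at most 4 counts in a library.

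The miR-26 family, known as a regulator of growth and of the chromatin enzyme EZH2, was the most abundant. miR-26a-5p had 30202 counts in control, 28874 in miR-1 and 33780 in miR-122, and ranked 16 among endogenous miRNAs in each library. After scaling on endogenous miRNAs, its level was 17927, 16068 and 17959 CPM (counts relative to the TMM-scaled endogenous library size). By this scaling control and miR-122 were level and miR-1 was slightly lower. Scaled by the total of endogenous counts, the log2 ratio of miR-26a-5p in miR-122 to control was -0.09. It was -0.49 under scaling by the total with the induced miRNAs. miR-26b-5p had 5321, 5170 and 4697 counts in control, miR-1 and miR-122, and its scaled level was lowest in miR-122. In log2 ratios to control, miR-26b-5p stood at -0.13 in miR-1 (-0.19 to -0.08) and at -0.34 in miR-122 (-0.40 to -0.28). The passenger arms were rare: miR-26b-3p had 16, 22 and 25 counts, miR-26a-2-3p 21, 19 and 13, and miR-26a-1-3p 7, 10 and 6.

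Because the 5p arms of the mir-26a hairpins are identical, the authors' counting divided those reads between them, 15101 each in control. The 3p arms differ in sequence and were counted separately. There were 3.0 counts of miR-26a-2-3p per count of miR-26a-1-3p in control (exact interval 1.23 to 8.35), 1.90 in miR-1 (0.84 to 4.57) and 2.17 in miR-122 (0.77 to 6.95). The intervals overlapped one another, and that of control alone left out a ratio of 1.

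miR-191-5p and miR-425-5p, which come from the same DALRD3 intron, differed in level and in how they varied. miR-191-5p, a broadly expressed miRNA, had 13403, 17806 and 16496 counts in control, miR-1 and miR-122, or 7956, 9909 and 8770 CPM. It was highest in miR-1, at a log2 ratio to control of 0.32 (0.28 to 0.35), a direction that turned under scaling by the total with the induced miRNAs (-0.41). miR-425-5p had 2255, 2628 and 3988 counts, or 1339, 1462 and 2120 CPM. It was highest in miR-122, at a log2 ratio to control of 0.66 (0.59 to 0.74), or 1.58-fold. Under scaling by the endogenous total this ratio was 0.57, short of 1.5-fold, and the direction was the same under all 4 scalings tried.

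The ratio of these neighbours within a library needs no scaling. There were 5.94 counts of miR-191-5p per count of miR-425-5p in control (exact interval 5.68 to 6.22), 6.78 in miR-1 (6.50 to 7.06) and 4.14 in miR-122 (4.0 to 4.28). No interval overlapped another. The passenger arms stood in the opposite order of abundance, with 0.175 counts of miR-191-3p per count of miR-425-3p in control (0.126 to 0.240), 0.130 in miR-1 (0.0913 to 0.180) and 0.175 in miR-122 (0.127 to 0.238). The range of log2 ratios between mates of 1 host was compared, leaving out miRNAs made from several hairpins. The NFYC and SMC4 pairs therefore set a 5p arm against a 3p arm. The CLCN5 and MCM7 sets mix 5p and 3p arms as well, whereas the DALRD3 pair holds 5p arms only. A range can only widen as miRNAs are added, so that the CLCN5 and MCM7 ranges are not matched to those of pairs. The 3p arm of the NFYC pair had only 51, 65 and 64 counts in control, miR-1 and miR-122. Its interval in miR-122 to control was -0.38 to 0.73, so that the NFYC ranges are uncertain. In miR-122 to control the range was 0.52 for DALRD3, 0.92 over 7 miRNAs of CLCN5, 0.71 over 3 of MCM7, 0.94 for a pair of NFYC and 0.03 for a pair of SMC4. There the spread within DALRD3 lay inside the range of the other 4 hosts. In miR-1 to miR-122 it was the widest of the 5 hosts, at 0.71 beside 0.49 for CLCN5, 0.42 for NFYC, 0.38 for MCM7 and 0.01 for SMC4. With miR-1 set against control it was 0.19 for DALRD3, narrower than 0.52 for NFYC, 0.49 for CLCN5 and 0.33 for MCM7, and wider than 0.05 for SMC4.

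**Figure D2:**
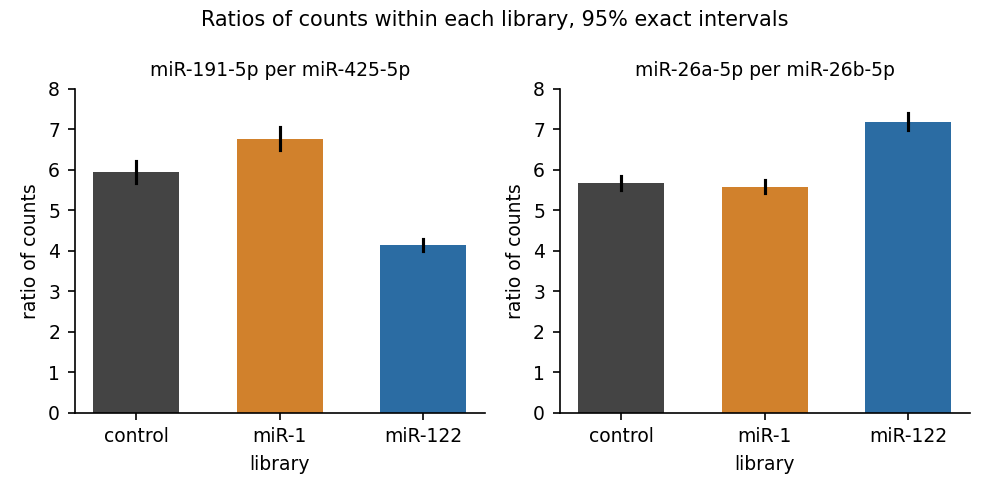
Bars give the ratio of counts within each library for the DALRD3 pair (left, miR-191-5p per miR-425-5p) and the miR-26 guide strands (right, miR-26a-5p per miR-26b-5p), with lines for 95% exact intervals. The left ratio is lowest in miR-122 (4.14) and the right ratio is highest there (7.19).

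The balance of the miR-26 guide strands also differed between libraries. There were 5.68 counts of miR-26a-5p per count of miR-26b-5p in control (5.51 to 5.84), 5.58 in miR-1 (5.42 to 5.75) and 7.19 in miR-122 (6.98 to 7.42). Control and miR-1 overlapped, and miR-122 lay above both.

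The hosts ZRANB2, WWP2 and PTK2 each hold 1 of the hairpins. miR-186-5p, from ZRANB2, had 5501, 5367 and 4337 counts in control, miR-1 and miR-122. It was lowest in miR-122, with a log2 ratio to control of -0.50 (-0.56 to -0.44) and of -0.13 in miR-1 (-0.18 to -0.07). Its other arm, miR-186-3p, had 0, 4 and 1 counts. miR-140-3p, whose hairpin is best known from cartilage, had 5230, 5285 and 5886 counts and miR-140-5p had 1539, 1580 and 1445. miR-151a-3p had 8393, 10073 and 11922 counts, with log2 ratios to control of 0.17 in miR-1 (0.13 to 0.21) and 0.35 in miR-122 (0.31 to 0.39). Scaling by the total with the induced miRNAs turned both of these ratios below 0, to -0.56 and -0.15. miR-151a-5p had 352, 311.5 and 351 counts. The fraction arises because some reads were divided with miR-151b, which had 8, 8.5 and 4 counts.

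miR-28-3p, from LPP, had 1221, 1366 and 1485 counts and miR-28-5p had 433, 496 and 353. The arms parted in miR-122, where miR-28-5p was at a log2 ratio to control of -0.45 (-0.66 to -0.25) and miR-28-3p at 0.12 (0.01 to 0.23), the latter turning to -0.37 under scaling by the total with the induced miRNAs. In miR-1 their ratios were 0.10 (-0.09 to 0.29) and 0.07 (-0.04 to 0.18), and neither left counting error.

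miR-335, from the imprinted gene MEST, was close to the lower limit of the data. miR-335-5p had 4, 3 and 1 counts in control, miR-1 and miR-122, and miR-335-3p had 30, 24 and 25. The scaled level of miR-335-3p was 17.8, 13.4 and 13.3 CPM. The 3 libraries did not differ beyond counting error, with a log2 ratio to control of -0.41 in miR-1 (-1.25 to 0.41) and -0.41 in miR-122 (-1.25 to 0.39). The list thus spans hairpins that are abundant and hairpins that are almost unread in these cells.

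The order of levels was much the same in the 3 libraries, with miR-26a-5p, miR-191-5p and miR-151a-3p at the top of each in that order. In control, miR-186-5p, miR-26b-5p and miR-140-3p followed at ratios to the next of 1.03 (0.995 to 1.07) and 1.02 (0.979 to 1.06), and could not be ordered. In miR-1 the same 3 were again level. In miR-122 they separated, with 1.25 counts of miR-140-3p per count of miR-26b-5p (1.21 to 1.30) and 1.08 of miR-26b-5p per count of miR-186-5p (1.04 to 1.13). Of 18 neighbouring pairs in each library, the interval of the ratio held 1 in 8 pairs in control, 8 in miR-1 and 7 in miR-122, and most of these pairs were arms under 50 counts.

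The 3 libraries were then compared miRNA by miRNA. A mean count of 10 or more was reached by 16 of the 19 miRNAs, and by 514 endogenous miRNAs in all. miR-26a-2-3p lay just inside that limit, and miR-26a-1-3p, miR-335-5p and miR-186-3p fell outside it. A miRNA was called different when it was at least 1.5-fold apart and its counting interval left out a ratio of 1.

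Between miR-1 and control 0 of the 16 were called, against 8.37% of all 514 (3.5% higher in miR-1 and 4.86% lower). Between miR-122 and control 1 was called, the higher miR-425-5p, against 18.1% of all 514 (6.81% higher and 11.3% lower). With miR-1 set against miR-122, again 0 were called, against 13.4% (8.75% higher in miR-1 and 4.67% lower). There miR-26a-2-3p was past 1.5-fold at a log2 ratio of 0.59, but at 19 and 13 counts its interval (-0.48 to 1.75) held a ratio of 1. miR-28-5p, at 0.56 (0.36 to 0.76), and miR-425-5p, at -0.54 (-0.61 to -0.46), lay short of the limit. At 2-fold, 0 members were called in each of the 3 comparisons. The shares of all 514 were 2.72% in miR-1 to control (1.75% higher, 0.973% lower) and 9.14% with miR-122 as the first library (3.31% higher, 5.84% lower). They were 7% in miR-1 to miR-122 (4.47% higher, 2.53% lower).

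Most of the members compared are more abundant than most of the endogenous miRNAs compared, though the rarest arms are not. A limit of 1000 on the mean count, chosen after the values were seen, kept 9 members and 108 miRNAs in all. For miR-1 to control 0 of these 9 and 0.93% of the 108 were called. For miR-122 the calls against control were 1 of 9 and 13.0% of the 108. With miR-1 set against miR-122 they were 0 of 9 and 9.26% of the 108. All of these calls describe pairs of libraries, and no conditions could be tested against each other.

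**Figure D3:**
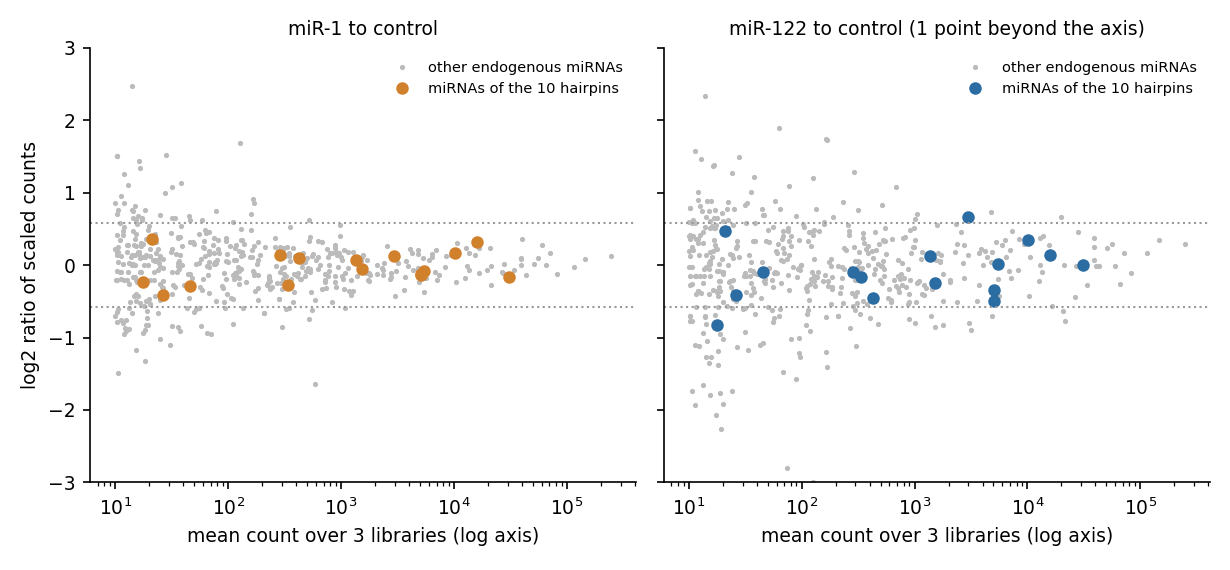
Log2 ratio of scaled counts to control against mean count (log axis), for the 16 measured miRNAs of the 10 hairpins (large points) and the other endogenous miRNAs (small grey points), with dotted lines at 1.5-fold. The large points lie within the spread of the grey ones in both panels, 1 grey point is beyond the axis in the right panel, and the large points beyond a dotted line are miR-425-5p and miR-26a-2-3p in miR-122, the latter at 13 counts against 21.

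The median log2 ratio of the 16 was -0.07 between miR-1 and control, with 7 above 0 and 9 below, beside -0.00 for all 514. Between miR-122 and control it was -0.10, with 7 above and 9 below, beside -0.03 for all. Between miR-1 and miR-122 it was -0.02, with 8 above and 8 below, beside 0.01 for all. The comparisons with control share the control library. Many smaller ratios still lay outside counting error. The interval left out a ratio of 1 for 8 of the 16 against control in miR-1, where 34.4% of all 514 did, and for 8 in miR-122, where 47.1% did. Between miR-1 and miR-122 it did so for 10, where 39.3% of all did. The high counts of the abundant members make their intervals narrow: miR-26a-5p lay outside counting error in miR-1 at a log2 ratio to control of -0.16 (-0.18 to -0.13).

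**Figure D4:**
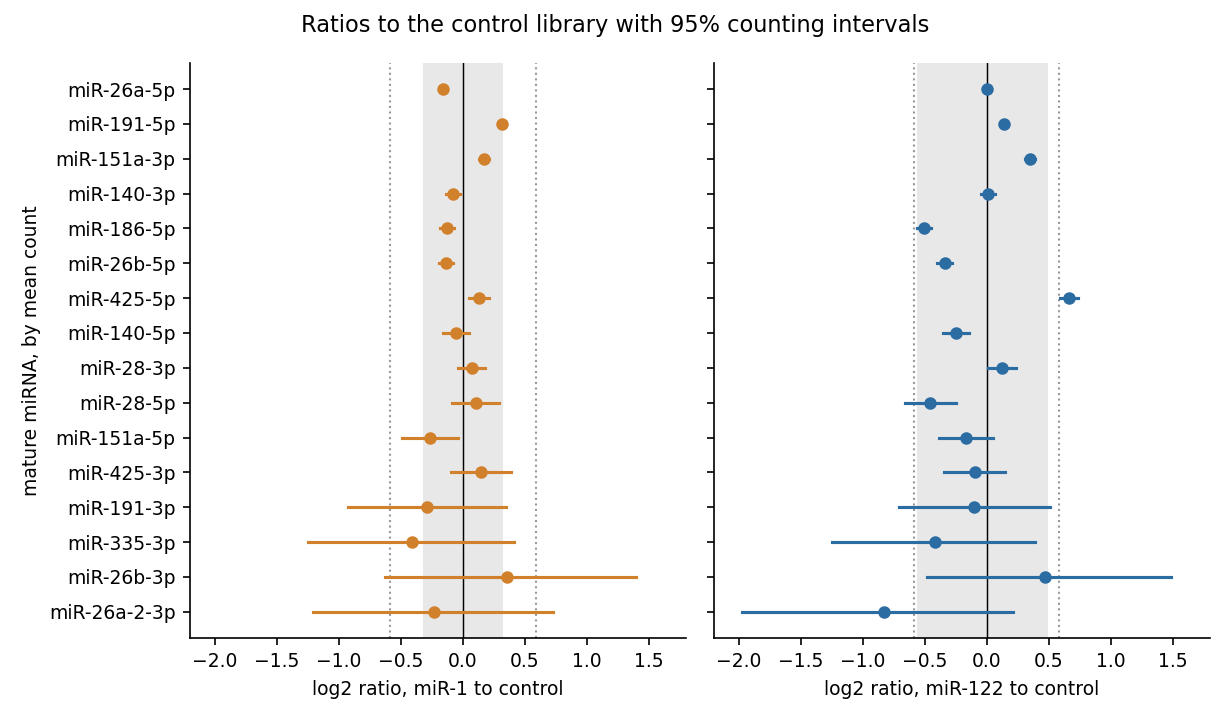
Log2 ratio to control of the 16 measured miRNAs, ordered by mean count, in miR-1 (left) and miR-122 (right), with 95% exact counting intervals, dotted lines at 1.5-fold and a grey band of 1 robust spread around the median of all 514 endogenous miRNAs. In the right panel miR-425-5p, at 0.66, is the one point whose whole interval lies beyond the dotted line.

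Other intronic miRNAs are set beside these values as a description, with no test between the lists. A list of 38 hairpins in hosts such as MCM7, CLCN5 and PANK genes held 53 miRNAs with enough counts. Against control, 0 of these were called higher and 2 lower in miR-1, with a median log2 ratio of -0.01. In miR-122 these were 2 higher and 6 lower, or 15.1% of the list, with a median of -0.02. The 16 members gave 6.25% there, and all 514 miRNAs 18.1%. At 2-fold the shares in miR-122 were 7.55% of the list, 0% of the members and 9.14% of all. By the annotation and with the members left out, 228 miRNAs lay in introns of protein-coding genes on the same strand and 132 lay outside such genes. Other tested miRNAs, such as those in exons or missing from the annotation, were in neither class, and the classes were not matched for abundance. Between miR-122 and control 14.5% of the 228 and 21.2% of the 132 were called, with medians of -0.02 and -0.03. The 228 were not kept apart from the list of 53, so that these can overlap.

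The share of a hairpin's reads that belongs to its major arm does not depend on the scaling between libraries. In control the 5p arm was the major arm of mir-191 (99.65%), mir-425 (89.4%), mir-26b (99.70%) and mir-186, and the 3p arm that of mir-140 (77.3%), mir-151a (95.97%), mir-28 (73.8%) and mir-335 (88.2%). Over both mir-26a hairpins 99.91% of counts were of the 5p arm. The major arm was the same in all 3 libraries for each hairpin.

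Arm shares were compared for hairpins with a mean of at least 10 counts of the minor arm and 100 of both arms. Hairpins that share a mature arm with another hairpin, among them those of mir-26a, were left out. Over both mir-26a hairpins the intervals of the 5p share overlapped in all 3 comparisons. The arm share in miR-122 stood apart from control, with intervals that did not overlap, in 4 of the 6 member hairpins kept. All 99 hairpins kept gave 35.4%, with 19.2% higher in miR-122 and 16.2% lower. The 6 averaged from 1785 counts of both arms (mir-28) to 15947 (mir-191), and the 99 were not matched to them for abundance. Higher counts narrow the intervals and make them separate more easily. In mir-28 the 3p arm made up 73.8% in control (71.6% to 75.9%), 73.4% in miR-1 (71.3% to 75.3%) and 80.8% in miR-122 (78.9% to 82.5%). In mir-425 the 5p arm made up 89.4% (88.1% to 90.5%), 89.3% (88.1% to 90.3%) and 93.4% (92.7% to 94.1%). In these hairpins control and miR-1 overlapped and miR-122 stood above both. The same held for the 3p arm of mir-140, at 77.3% (76.3% to 78.2%), 77.0% (76.0% to 78.0%) and 80.3% (79.4% to 81.2%). For mir-151a it was control that stood apart, at 95.97% (95.54% to 96.37%), with 97.00% in miR-1 (96.65% to 97.31%) and 97.14% in miR-122 (96.83% to 97.42%).

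All 4 of these hairpins had the higher share in miR-122. Of the 93 hairpins of other miRNAs, 15 stood apart with a higher share in miR-122 and 16 with a lower one. By direction alone, the share was higher in miR-122 in 5 of the 6 and lower in 1, mir-26b. Over the 93 it was higher in 47 and lower in 46. The median shift was 2.10 percentage points for the 6 and 0.01 for the 93. Between miR-1 and control 1 of the 6, mir-151a, was apart, against 19.2% of the 99 (9.09% higher in miR-1 and 10.1% lower). For miR-1 set against miR-122, 3 of the 6 were apart, mir-28, mir-140 and mir-425, all lower in miR-1, against 27.3% (11.1% higher and 16.2% lower). A direction particular to these 6 was not tested.

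In mir-425 there were 8.41 counts of the 5p arm per count of the 3p arm in control (7.41 to 9.59), 8.32 in miR-1 (7.40 to 9.38) and 14.2 in miR-122 (12.6 to 16.1). miR-425-3p had 268, 316 and 280 counts in control, miR-1 and miR-122, a log2 ratio of -0.10 between miR-122 and control (-0.34 to 0.15), within counting error. In mir-28 the 5p minor arm was lower in miR-122, as given above. In mir-140 the 5p minor arm stood at a log2 ratio of -0.25 between miR-122 and control (-0.35 to -0.15) and the 3p arm at 0.01 (-0.04 to 0.07). The 3p ratio turned to -0.08 under the endogenous total and to -0.48 under the total with the induced miRNAs.

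**Figure D5:**
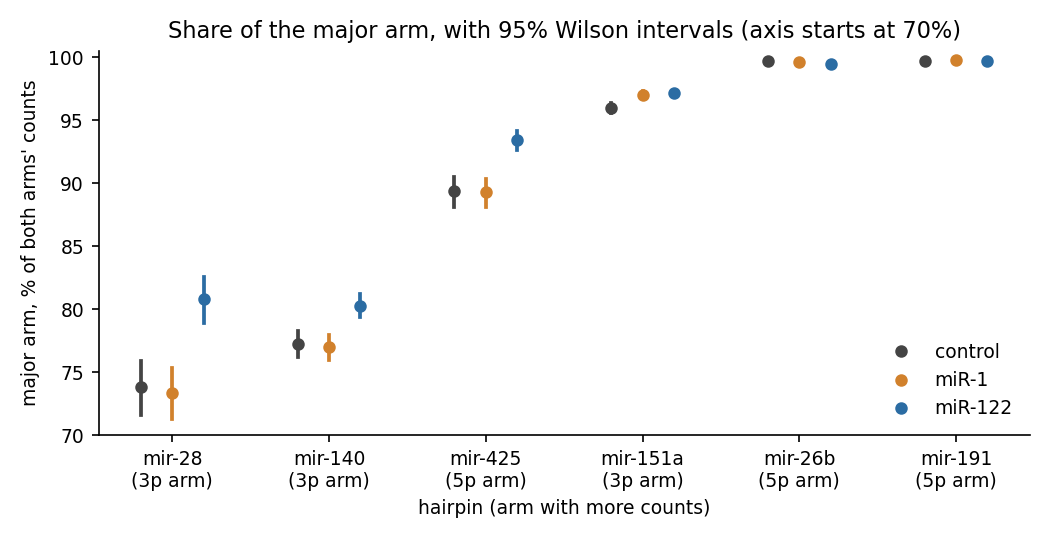
Share of the major arm among the counts of both arms, in percent on an axis that starts at 70%, with lines for 95% Wilson intervals. The 6 hairpins shown had enough counts of both arms and share no mature arm with another hairpin. For mir-28, mir-140 and mir-425 the miR-122 library (blue) lies above control and miR-1, and for mir-26b and mir-191 the 3 libraries overlap above 99%.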

How the data were processed

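The input was 1000 ng of total RNA for each library. Per the study's methods, the authors used miRDeep2 to clip adapters, discard reads shorter than 18 nt, collapse duplicates with their multiplicity kept, and quantify them on miRBase release 21 human hairpins with the synthetic ones appended. What they deposited is an estimated count for every pair of mature miRNA and hairpin, and reads that fit several hairpins were shared among them. RPM values deposited by the authors, relative to all miRNA reads with the induced miRNAs included, were not analysed. The build in the submitters' notes is hg19, which miRNA counting did not use.

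Counts were summed over hairpins. TMM factors (edgeR 4.0.16, R 4.3.3) came from endogenous miRNAs averaging 10 counts or more. Log2 ratios used a pseudocount of 0.5, and intervals were exact binomial on rounded counts (scipy 1.17.1) or Wilson, at 95%. DESeq2 1.42.0 gave the median-of-ratios factors of an alternative. With a single library for each group, no p-value was computed. The steps were tested on data simulated with counting error alone, without variation between cultures or PCR copies. Every arm of the 10 hairpins is named, and other miRNAs are named where they share a seed or reads with these or were induced. The members, by a rule of names alone, and the lists were chosen with earlier results of these data known. Hairpins were placed with GENCODE release 44 on GRCh37.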

Additional observations from a re-analysis of the deposited data

How the results depend on the processing

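No paired analysis was possible because 1 library stood for each condition, and for the same reason none could be left out. Triplets below give miR-1 against control, miR-122 against control, and miR-1 against miR-122. When the library total included the induced miRNAs, which enlarge it by construction, the median of all endogenous miRNAs was -0.72, -0.53 and -0.22, and that of the members -0.79, -0.59 and -0.25. Then 11, 8 and 1 members were past 1.5-fold, all lower, and 2, 1 and 0 past 2-fold. Under the endogenous total, the 1 call of miR-122 against control was miR-186-5p (log2 -0.59) and not miR-425-5p (0.57), 1 call appeared for miR-1 against miR-122 (miR-28-5p, log2 0.61), and the median of that comparison turned to 0.030. A minimum mean count of 100, which left 12 members, turned the median of miR-1 against control to 0.043 and of miR-1 against miR-122 to 0.077, and no filter turned the latter to 0.20. Median-of-ratios scaling, a pseudocount of 5 and the highest hairpin left every count of calls as it was. Counting the highest hairpin alone gave the members 4.20%, 4.19% and 4.06% of endogenous counts in control, miR-1 and miR-122. Over all counts their share was 2.74% in miR-1 and 3.3% in miR-122. The 5p share of mir-26a-1 as deposited was 99.954%, 99.931% and 99.964% in the 3 libraries, and that of mir-26a-2 in control was 99.861%. The minimum of 1000 was added after the data were seen. Depth limits the arms under 50 counts, whose intervals are wide.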
